A study of Homo sapiens with 18 samples.

Results

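The 36 genes described here are known targets of the transcription factor p53, taken by their symbols from the 58870 genes of the deposited table. Of them, 35 passed a filter on low counts and were tested among 17743 genes. TNFRSF10A, a death receptor, did not pass, with 2 counts in total over all 18 libraries, so it was not detectable at this depth. Polyadenylated RNA was sequenced from HEK293T cells, a human embryonic kidney line that also carries the SV40 large T antigen, a viral protein that binds p53. In each group 750000 cells were given 1 of 3 base editors, which are Cas9 nickases fused to a deaminase that changes bases without cutting both strands. SaABE is the adenine deaminase ABE8e on nSaCas9 in pX462, SpABE is the same deaminase on nSpCas9 in pX461, and SpCBE is the cytosine deaminase evoCDA1 on nSpCas9 in pX461. The guide with each editor targeted a splice site of exon 7 of NRF1, a transcription factor of mitochondrial and housekeeping genes, or an intergenic site. All groups were selected with puromycin for 48 hours and lysed 72 hours after transfection. The 6 groups held 3 libraries each, named by replicate 1, 2 and 3 in that order, and the labels do not say that these came from separate cultures, so that p-values measure only the spread between libraries. SaABE had its own intergenic guide and SpABE and SpCBE shared one, while each editor had its own NRF1 guide. A difference between SaABE and either SpCas9 editor therefore carries the Cas9, the guide and the plasmid together, and against SpCBE the deaminase as well, which cannot be told apart, while SpABE and SpCBE with the intergenic guide differ in the deaminase. In these bulk samples fewer cells of a state cannot be told apart from less RNA per cell.

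p53 is a sensor of DNA damage and other stress that switches on genes for cell cycle arrest, DNA repair and cell death. It is kept low by its own target MDM2, a ubiquitin ligase that marks it for degradation, and by the phosphatase PPM1D, which reverses the damage signal. CDKN1A, which encodes the kinase inhibitor p21, carries much of the arrest response, while BAX and BBC3 act on mitochondria to start apoptosis. In cells with large T antigen p53 is bound and its output is restrained, so levels in this line describe the genes as they stand there and not a p53 response in cells without it.

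Each library held between 28101094 and 40687447 estimated counts, and the 36 genes together took between 0.3134% and 0.3895% of them. Levels are given as TMM-scaled CPM, counts over the TMM-scaled size of the library on a common total. The 8 markers of HEK293 cells each had a mean over all libraries of at least 1 CPM. Per library they summed to between 900.8 and 1094 CPM, whereas the 6 blood markers summed to between 3.301 and 4.695 CPM and the 5 fibroblast markers to between 16.87 and 24.92 CPM. The gene count of NRF1 itself was higher with the NRF1 guide in each editor, with log2 fold changes of 0.32 ± 0.055 in SaABE, 0.45 ± 0.054 in SpABE and 0.69 ± 0.054 (SE) in SpCBE. A gene count does not show whether exon 7 was skipped.

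Gene positions below are hg38 coordinates from GENCODE 44. Per kilobase of exon in the intergenic libraries, the 35 tested members ranged from 98.5 CPM for CCNG1, a cyclin that recruits a phosphatase to MDM2, to 0.0548 CPM for TRIM22, an antiviral ubiquitin ligase. SESN2, a sestrin that restrains mTORC1, followed CCNG1 at 87.4 CPM per kilobase and CDKN1A at 73.7. MDM4, a relative of MDM2 that also binds p53, was lower in SaABE than in SpABE (log2 fold change -0.33, adjusted p = 3.55e-05).

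Promoter letters are shown for 5 members whose levels are described below, to set the p53 and NRF1 elements beside the values. The p53 element searched was 1 decamer of the p53 response element, namely 3 purines, C, 2 letters that are A or T, G and 3 pyrimidines. The NRF1 elements were GCGCANGCGC and the shorter core TGCGCA, which can overlap it. Both strands were read in windows of 250 bases before and 50 bases after RefSeq gene starts (GRCh38.p14), where 29 members had 41 windows. The p53 decamer stood in 6 of the 41 windows, those of PLK2, AEN, FAS, DDB2, SESN1 and FDXR, and in 6.63% of all 35116 windows. The longer NRF1 element stood in the windows of PPM1D, POLH and TIGAR and in 5.78% of all windows, and the core in those of PPM1D, ZMAT3, POLH and SESN1 and in 8.24% of all. These are matches of letters and not measured binding. In the lines below capitals mark the p53 decamers in DDB2 (chr11:47214975-47215004, plus strand, in the first exon) and FDXR (chr17:74872995-74873024, minus strand), the longer NRF1 element in POLH (chr6:43576019-43576079, plus strand, where the first bases overlap the first exon of XPO5 on the other strand) and PPM1D (chr17:60600186-60600215, plus strand, across the gene start), and the core in ZMAT3 (chr3:179071852-179071881, minus strand).
DDB2: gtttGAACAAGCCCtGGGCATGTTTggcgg
FDXR: ggcgggcccgggcaggagcGGGCTTGCCCt
POLH: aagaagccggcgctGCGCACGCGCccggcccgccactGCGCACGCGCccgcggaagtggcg
PPM1D: gaagcgcagtGCGCAGGCGCaactgcctgg
ZMAT3: gccaagcacaTGCGCAgtggcgacgccgag

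The DDB2 stretch held 2 decamers separated by a single base, and the POLH stretch held 2 copies of the longer NRF1 element. The FDXR decamer ended 2 bases before the start annotated by RefSeq, which lies within the gene as GENCODE 44 gives it.

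The first question was how the editors differ when the guide targets no gene. With the intergenic guide, most p53 targets stood highest under SpCBE, and the members split between SaABE and SpABE as to which was lowest. SpCBE had the highest mean for 23 of 35 members (65.7%), compared with 34.2% of all tested genes, and the lowest for 2. SpABE was lowest for 18 members (51.4%) and SaABE for 15 (42.9%), compared with 32.2% and 35.7% of all genes. The order SpCBE over SpABE over SaABE held for 14 members, and SpCBE over SaABE over SpABE and SaABE over SpCBE over SpABE for 9 each.

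In SpCBE against SpABE, 23 of 35 members were higher and 2 lower at an adjusted p under 0.05, where 17.8% of all genes were higher and 17.7% lower. Their median log2 fold change was 0.17, and that of all genes 0.003. Errors of log2 fold changes are standard errors of the edgeR fit. Members given with their values beside the 12 called ones were picked for their role after the values were seen. With the further requirement of an absolute log2 fold change over 0.5, which defines a called gene here, 4 members were called (3 higher, 1 lower) beside 6.19% of all genes. In SaABE against SpABE, 14 members were higher and 12 lower, beside 19.3% and 19.1% of all genes, with a median of 0.066 against 0.002 for all genes. There, 6 members were called, 2 higher and 4 lower, beside 7.03% of genes. In SaABE against SpCBE, 7 members were higher and 19 lower, beside 20.1% and 20.6% of genes, with a median of -0.17 against -0.0097. There, 8 were called, 1 higher and 7 lower, beside 8.04% of genes. Some cell type markers also differed between editors, and their part in the result was not tested. In SpCBE against SpABE 4 of 8 HEK293 markers were higher and 1 lower (median 0.18), and of 4 fibroblast markers tested 1 was higher (median 0.21), while 0 of 3 blood markers tested passed (median -0.056). In SaABE against SpABE 4 of 8 HEK293 markers were higher and 1 lower (median 0.097). There, 0 of 4 fibroblast markers passed (median -0.056) and 1 of 3 blood markers was lower (median 0.20). In SaABE against SpCBE 0 HEK293 markers were higher and 3 lower (median -0.048), and 2 of the 4 fibroblast markers were lower (median -0.42). These 3 comparisons share libraries, so each is given with its own values and they are not 3 separate lines of evidence.

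Among the feedback genes, MDM2 (chr12:68808177-68845544, plus strand) was low in SaABE. Its intergenic libraries held 239, 254 and 238 CPM under SaABE, 374, 361 and 342 under SpABE and 403, 389.9 and 370.4 under SpCBE. All 3 SaABE libraries lay below the 6 libraries of the SpCas9 editors, which overlapped between SpABE and SpCBE. The log2 fold change of SaABE was -0.56 ± 0.039 against SpABE (adjusted p = 6e-11) and -0.67 ± 0.039 against SpCBE (adjusted p = 1.43e-12). The MDM2 counts were not whole numbers in any library, and 439 bases of its exons overlap another gene on the same strand and 918 bases genes on the opposite strand, so reads shared with other genes may be split in it. PPM1D (chr17:60600193-60666280, plus strand) was instead low in SpABE, at 115, 109 and 105 CPM, compared with 142, 155 and 146 under SaABE and 151, 147 and 145 under SpCBE. SpABE did not overlap the other editors, which overlapped each other, and the log2 fold change was 0.43 ± 0.036 in SpCBE and 0.43 ± 0.036 in SaABE against SpABE. TRIAP1, an inhibitor of caspase activation, was lower in SaABE than in SpABE (-0.41) and SpCBE (-0.42), and CCNG1 was lower in SaABE by smaller amounts (-0.21 and -0.15).

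Of the 6 arrest genes, GADD45A and PLK2 had the largest differences, in separate editors. GADD45A (chr1:67685201-67688334, plus strand), a damage-induced protein that binds cell cycle and stress kinases, held 82.4, 81.8 and 82.5 CPM under SaABE, 121, 131 and 125 under SpABE and 133, 131 and 123 under SpCBE. The SaABE libraries lay below all others, at log2 fold changes of -0.61 ± 0.038 against SpABE (adjusted p = 8.96e-12) and -0.65 ± 0.038 against SpCBE. PLK2 (chr5:58453982-58460139, minus strand), a polo-like kinase, was low in SpCBE, where it held 38.8, 36.2 and 35.8 CPM, compared with 53.04, 55.3 and 56.5 under SaABE and 61.1, 60.9 and 57.2 under SpABE. The SpCBE libraries lay below the other 6, and PLK2 was the 1 member called lower in SpCBE against SpABE (-0.69 ± 0.042, adjusted p = 8.78e-12). CDKN1A, named after its values were seen for its place in the pathway, held 273, 256 and 248 CPM under SaABE, 200, 196 and 194 under SpABE and 211, 208 and 200.5 under SpCBE. SaABE lay above both other editors, with 0.40 ± 0.035 against SpABE and 0.33 ± 0.035 against SpCBE on the log2 scale, under the fold threshold. ZMAT3 (chr3:178960121-179072215, minus strand), an RNA-binding protein, ran from 55.6, 58.4 and 59.1 CPM under SaABE through 67.7, 62.2 and 63.1 under SpABE to 71.5, 72.1 and 67.8 under SpCBE. SaABE lay below both, while SpABE and SpCBE were apart by a narrow margin, and all 3 comparisons passed with absolute log2 fold changes of at most 0.29. ZMAT3 in SpCBE against SpABE did not pass without SpABE_intergenic replicate 2 or 3 (adjusted p = 0.112 and 0.0988). Nor did it without SpCBE_intergenic replicate 1 or 2 (0.0904 and 0.115). Its difference of SaABE from SpABE did not pass without SpABE_intergenic replicate 1 (0.0649). BTG2 (chr1:203305491-203309602, plus strand), an antiproliferative cofactor of mRNA deadenylation, held 87.1, 87.4 and 81.9 CPM under SaABE, 94.8, 94.1 and 86.5 under SpABE and 91.5, 96.2 and 91.5 under SpCBE, with overlapping libraries between SaABE and SpABE. PLK3, another polo-like kinase, was higher in SpCBE (0.47) and SaABE (0.27) than in SpABE.

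The 7 members of the mitochondrial apoptosis group differed by less. APAF1 (chr12:98645290-98735433, plus strand), the scaffold of the caspase-activating apoptosome, was the 1 called, lower in SaABE than in SpCBE. It held 46.6, 47.7 and 46.8 CPM under SaABE, 62.9, 64.5 and 57.9 under SpABE and 69.97, 66.2 and 67.2 under SpCBE. The SaABE libraries lay below the other 6, with a log2 fold change of -0.53 ± 0.046 against SpCBE (adjusted p = 2.67e-09), and of -0.50, at the edge of the fold threshold, without SpCBE_intergenic replicate 1. The effectors BAX and BBC3 differed by a log2 fold change of at most 0.28 between any pair of editors, BAX being higher in SaABE (0.28 and 0.21 against SpABE and SpCBE) and BBC3 lower in SpCBE than in SpABE (-0.27). TP53INP1, a cofactor in p53 phosphorylation, was higher in SpCBE (0.43) and SaABE (0.26) than in SpABE, as were AEN, an exonuclease of apoptotic cells (0.26 and 0.26), and PHLDA3, an inhibitor of AKT (0.17 and 0.33). PIDD1, a scaffold for caspase activation, passed in SpCBE against SpABE (0.19). Of the 3 death receptors tested, FAS was higher in SpCBE than in SpABE (0.30) and TNFRSF10B higher in SaABE than in SpABE (0.19), and EDA2R passed in none of the 3 comparisons. The exons of FAS overlap those of ACTA2 on the opposite strand, and the counting setting for strand is not given in the sources used here.

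All 4 DNA repair members were higher in SpCBE than in SpABE, by log2 fold changes of 0.13 to 0.28. The smallest, that of DDB2, did not pass without SpABE_intergenic replicate 1 (adjusted p = 0.0724) or without SpCBE_intergenic replicate 3 (0.0712). The largest difference in the group lay in SaABE. DDB2 (chr11:47214465-47239217, plus strand), the damage-binding subunit that starts nucleotide excision repair, held 32.4, 29.8 and 31.1 CPM under SaABE, 53.04, 55.6 and 56.4 under SpABE and 59.1, 59.95 and 61.1 under SpCBE. No library of 1 editor overlapped another editor, and SaABE was 1.93-fold lower than SpCBE (log2 fold change -0.95 ± 0.042, adjusted p = 7.91e-15) and 1.77-fold lower than SpABE (-0.82 ± 0.042). XPC, which recognises the lesion in the same pathway, was also lower in SaABE, at -0.18 against SpABE and -0.46 against SpCBE, while POLH (-0.15) passed against SpCBE and RRM2B, a ribonucleotide reductase subunit (0.12), against SpABE.

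The metabolic and mitochondrial group held the widest differences between editors. TP53I3 (chr2:24077433-24085861, minus strand), a quinone oxidoreductase linked to reactive oxygen species, held 6.04, 7.18 and 5.81 CPM under SaABE, 4.10, 4.50 and 4.45 under SpABE and 17.98, 18.6 and 18.04 under SpCBE. Every SpCBE library lay above all others, a 4.18-fold difference from SpABE (log2 fold change 2.06 ± 0.084, adjusted p = 4.23e-15) and a 2.87-fold difference from SaABE (-1.52 ± 0.082). SaABE also lay above SpABE, by 0.54 ± 0.098, which fell to 0.44 without SaABE_intergenic replicate 2, under the fold threshold. FDXR (chr17:74862497-74873031, minus strand), the mitochondrial ferredoxin reductase, was graded across the editors. It held 28.1, 25.5 and 25.02 CPM under SaABE, 47.98, 51.3 and 47.9 under SpABE and 61.8, 65.96 and 62.1 under SpCBE, with no overlap, and SaABE was 2.42-fold lower than SpCBE (log2 fold change -1.27 ± 0.051, adjusted p = 1.09e-15). SPATA18 (chr4:52051304-52097299, plus strand), which acts in mitochondrial quality control, held 21.5, 24.4 and 23.4 CPM under SaABE, 20.8, 21.6 and 22.9 under SpABE and 33.6, 34.6 and 32.8 under SpCBE. SpCBE lay above the overlapping pair of other editors, by 0.63 ± 0.054 over SpABE, and SaABE was at -0.55 ± 0.054 against SpCBE, or -0.50 without SaABE_intergenic replicate 1. The sestrins did not move alike, with SESN1 lower in SaABE than in SpCBE (-0.47) and SESN2 slightly higher (0.08). TIGAR, a fructose bisphosphatase, passed in none of the comparisons. With the replicate number as a block, TIGAR passed in SpCBE against SpABE (0.10, adjusted p = 0.0438) and in SaABE against SpABE (0.12, adjusted p = 0.0246).

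Of the 5 secreted, membrane and antiviral genes, GDF15, a secreted stress cytokine, was higher in SpCBE (0.48 ± 0.065) and SaABE (0.42 ± 0.067) than in SpABE and did not pass between SaABE and SpCBE. TRIM22 (chr11:5689610-5737089, plus strand) was near the detection limit, with 412 counts over all libraries. It held 0.238, 0.857 and 0.957 CPM under SaABE, 0.373, 0.235 and 0.340 under SpABE and 1.03, 1.253 and 0.914 under SpCBE. SpCBE lay above SpABE in all libraries (1.76 ± 0.36, adjusted p = 0.000426), whereas 1 SaABE library lay within the range of SpABE. The called difference of SaABE from SpABE (1.12 ± 0.39, adjusted p = 0.0251) was lost without SaABE_intergenic replicate 2 (adjusted p = 0.107), without SaABE_intergenic replicate 3 (0.169) and without SpABE_intergenic replicate 2 (0.105). CD82 and PERP, both membrane proteins, were lower in SaABE than in SpCBE (-0.39 and -0.25), and NINJ1, which ruptures dying cells, was higher in both other editors than in SpABE (0.21 in SpCBE and 0.22 in SaABE).

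**Figure D1:**
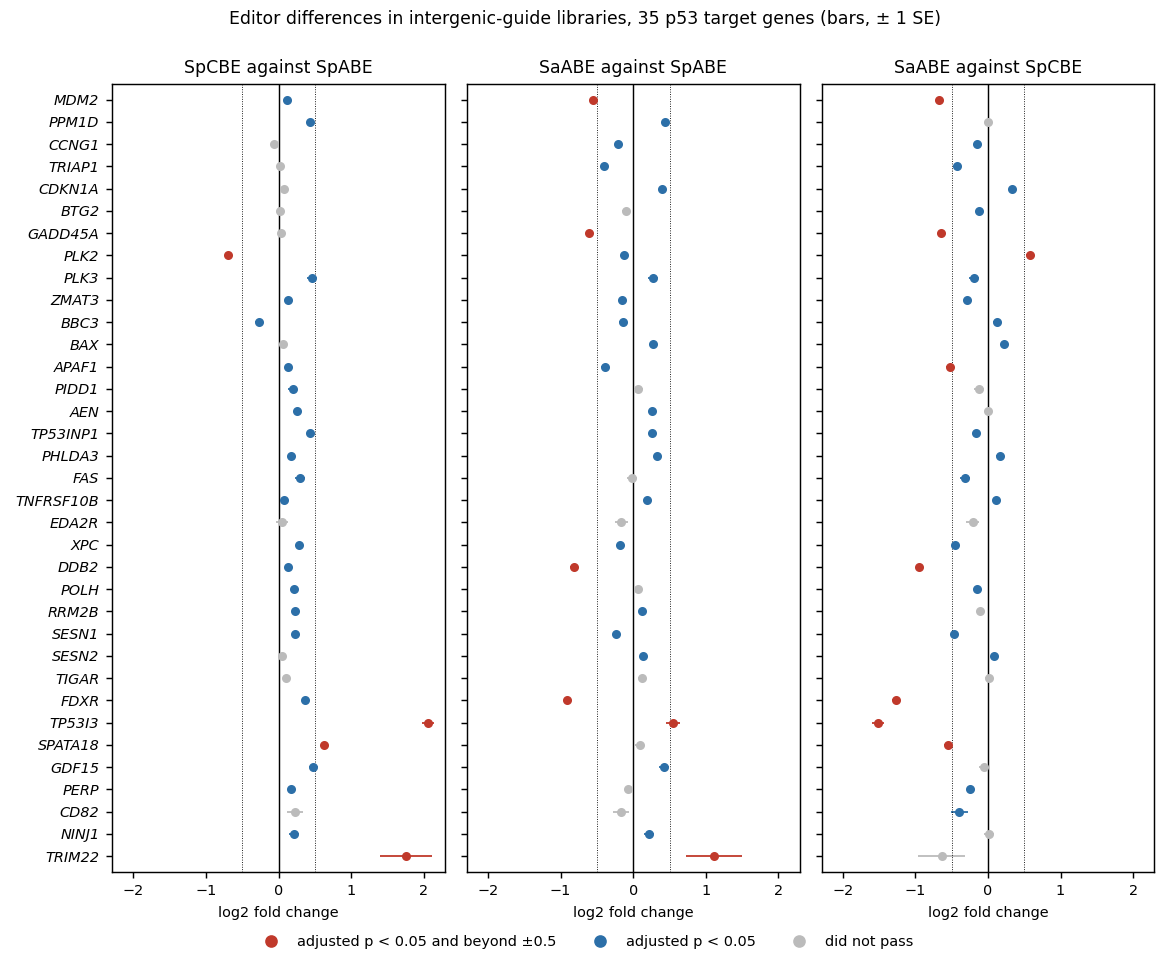
Log2 fold change (x axis) of each of 35 p53 target genes (y axis, ordered by role) between editors in the intergenic-guide libraries, from the fit over all 18 libraries, with bars of 1 SE and dotted lines at the fold threshold of 0.5. TP53I3 and TRIM22 lie farthest to the right in SpCBE against SpABE, and FDXR and DDB2 far to the left in both panels with SaABE.

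The second question was what the NRF1 guide changes, with each editor compared with its own intergenic guide. Over all 3 editors the 35 members split evenly and by small amounts, with 9 higher and 8 lower at an adjusted p under 0.05, beside 20.6% and 18.8% of all genes. Their median log2 fold change was -0.00049, and that of all genes 0.013. By edgeR 0 of the 35 were called, beside 5.50% of all genes, although 18 had an unadjusted p under 0.05, and DESeq2 also called 0. Without the editor as a term 6 members passed. The largest fall was that of ZMAT3 and the largest rise that of PPM1D.

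By editor, 8 members were higher and 6 lower in SaABE, beside 16.9% and 15.5% of all genes, with 1 called beside 6.05%. In SpABE 10 were higher and 10 lower, beside 15.4% and 17.3%, with 3 called beside 6.41%. In SpCBE 7 were higher and 3 lower, beside 11.0% and 12.0%, with 1 called beside 4.45% (0 without SpCBE_NRF1 replicate 3). The medians were -0.0020 in SaABE, -0.047 in SpABE and 0.028 in SpCBE, compared with 0.015, -0.0015 and 0.012 for all genes. Of the 35 members, 3 were higher in all 3 editors (CCNG1, BAX and XPC), 3 lower in all 3 (ZMAT3, POLH and SPATA18), 2 passed in opposite directions in different editors (DDB2 and GDF15), 18 passed in 1 or 2 editors in a single direction and 9 passed in none (TRIAP1, PLK3, TNFRSF10B, SESN1, TIGAR, PERP, CD82, NINJ1 and TRIM22). CCNG1, BAX, XPC, POLH and GDF15 were singled out after their values were seen.

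ZMAT3 fell in all 3 editors with the NRF1 guide. Its NRF1-guide libraries held 43.7, 44.7 and 46.9 CPM under SaABE, 49.3, 47.5 and 45.1 under SpABE and 49.5, 51.7 and 45.5 under SpCBE. All 9 lay below the intergenic libraries of their own editor given above, by log2 fold changes of -0.35 ± 0.049, -0.44 ± 0.046 and -0.53 ± 0.046 (SE), and over all editors ZMAT3 had a log2 fold change of -0.44 ± 0.031 (adjusted p = 2.8e-11). The value in SpCBE was -0.47 without SpCBE_NRF1 replicate 3, which is under the fold threshold. SPATA18 held 15.99, 15.9 and 14.1 CPM under SaABE, 17.7, 18.2 and 16.5 under SpABE and 24.7, 26.5 and 25.4 under SpCBE with the NRF1 guide. Each editor's NRF1-guide libraries lay below its intergenic ones, with the largest fall in SaABE (-0.59 ± 0.061, adjusted p = 4.12e-08), followed by SpCBE (-0.40) and SpABE (-0.32).

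POLH, the polymerase that copies past ultraviolet lesions, fell in the same way and carries the 2 NRF1 elements printed above. With the intergenic guide it held 47.5, 47.8 and 47.1 CPM under SaABE, 46.1, 44.6 and 45.4 under SpABE and 54.4, 53.05 and 50.03 under SpCBE. With the NRF1 guide it held 36.4, 34.96 and 34.2 CPM under SaABE, 35.6, 34.8 and 33.1 under SpABE and 47.6, 48.3 and 45.2 under SpCBE. The libraries of the guides did not overlap in any editor, and the fall was smaller in SpCBE (-0.16 ± 0.038) than in SaABE (-0.43 ± 0.042) or SpABE (-0.39 ± 0.04), with adjusted p of 0.0059 and 0.00817 for those differences. The other members with the longer element or the core did not share a direction, as ZMAT3 fell, PPM1D passed in SpABE, where it was higher, and TIGAR and SESN1 passed in none.

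The 3 members that rose in every editor did so by little. CCNG1 rose by 0.17, 0.11 and 0.17 in SaABE, SpABE and SpCBE, XPC by 0.13, 0.12 and 0.16, and BAX by 0.09, 0.08 and 0.14. With the replicate number as a block, the rises of CCNG1 in SpABE (adjusted p = 0.0546) and of BAX in SaABE and SpABE (0.0823 and 0.104) did not pass. CDKN1A rose over all 3 editors by 0.18 ± 0.027 (adjusted p = 1.01e-05), and by 0.29 in SpABE, where its libraries went from 200, 196 and 194 to 247, 244 and 233 CPM. The guides did not overlap there, and in SpCBE the value of 0.09 did not pass (adjusted p = 0.0574, and 0.0289 with the replicate number as a block). RRM2B rose in SaABE (0.25) and SpABE (0.14), BBC3 and SESN2 in SaABE (0.15 and 0.10) and PHLDA3 in SpABE (0.16). Of the apoptosis and death receptor genes, PIDD1 fell in SpABE (-0.44) and SaABE (-0.19), and EDA2R, FAS, TP53INP1 and AEN fell in SpABE (-0.28, -0.20, -0.19 and -0.12).

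SpABE held the remaining called genes. PPM1D reached 175, 173 and 166 CPM with the NRF1 guide in SpABE, compared with 161, 159 and 151 under SaABE and 156, 154 and 155 under SpCBE. The SpABE libraries with the intergenic guide were the low ones of all 18 and rose past the other editors, by 0.64 ± 0.035 (adjusted p = 3.53e-13). TP53I3 held 6.90, 7.71 and 6.69 CPM under SpABE with the NRF1 guide, 5.31, 6.29 and 5.44 under SaABE and 18.01, 20.3 and 18.02 under SpCBE. In SpABE all 3 lay above its intergenic libraries (0.70 ± 0.094, adjusted p = 1.97e-06), reaching the range of SaABE but not of SpCBE, and the libraries of SaABE and SpCBE overlapped between guides. BTG2 went the other way, to 65.5, 62.3 and 63.5 CPM under SpABE, with 89.6, 87.8 and 82.1 under SaABE and 88.9, 88.7 and 79.7 under SpCBE. Its SpABE libraries with the NRF1 guide were the lowest of all 18, a log2 fold change of -0.53 ± 0.045 (adjusted p = 1.28e-09). None of these 3 calls in SpABE was lost with the replicate number as a block.

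The NRF1 guide moved MDM2, GADD45A and APAF1 by small amounts. MDM2 held 239, 226 and 232 CPM under SaABE, 372, 362 and 344 under SpABE and 434, 442 and 412 under SpCBE with the NRF1 guide. It rose in SpCBE (0.15 ± 0.038, adjusted p = 0.00608) and did not pass in SaABE (-0.07) or SpABE. GADD45A held 80.4, 80.8 and 82.1 CPM under SaABE, 138, 138 and 129 under SpABE and 138, 137 and 128 under SpCBE, and rose in SpABE by 0.10. That rise did not pass without SpABE_intergenic replicate 1 or 3 (adjusted p = 0.137 and 0.0563). Nor did it without SpABE_NRF1 replicate 1 or 2 (0.123 and 0.113). APAF1 held 45.3, 43.8 and 48.6 CPM under SaABE, 60.97, 60.9 and 57.1 under SpABE and 75.8, 79.5 and 71.5 under SpCBE, with a rise of 0.16 in SpCBE. Without SpCBE_NRF1 replicate 2 the rise of APAF1 did not pass (adjusted p = 0.0697). For these 3 genes the SaABE libraries with the NRF1 guide again lay below all libraries of the other editors.

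DDB2 and FDXR rose in SpCBE. DDB2 held 25.9, 28.2 and 27.6 CPM under SaABE, 47.3, 44.5 and 44.9 under SpABE and 69.2, 71.7 and 67.1 under SpCBE with the NRF1 guide. It fell in SaABE (-0.19 ± 0.047) and SpABE (-0.27 ± 0.039) and rose in SpCBE (0.21 ± 0.038), with no overlap of the guides in any editor. FDXR held 26.8, 27.99 and 27.9 CPM under SaABE, 45.9, 45.8 and 43.9 under SpABE and 75.9, 81.02 and 70.8 under SpCBE, and rose in SpCBE (0.26 ± 0.045, adjusted p = 8.86e-05), where the guides did not overlap. In the other editors FDXR did not pass (in SpABE adjusted p = 0.0562, and 0.0472 with the replicate number as a block), at 0.07 and -0.12. PLK2 held 71.9, 70.7 and 69.4 CPM under SaABE, 63.1, 64.9 and 58.8 under SpABE and 36.05, 35.4 and 34.5 under SpCBE, and rose in SaABE (0.36 ± 0.041, adjusted p = 1.89e-07) with no overlap of guides. TRIM22 held 0.884, 0.786 and 0.591 CPM under SaABE, 0.371, 0.179 and 0.355 under SpABE and 0.736, 1.04 and 0.963 under SpCBE, which overlapped the intergenic libraries in each editor.

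**Figure D2:**
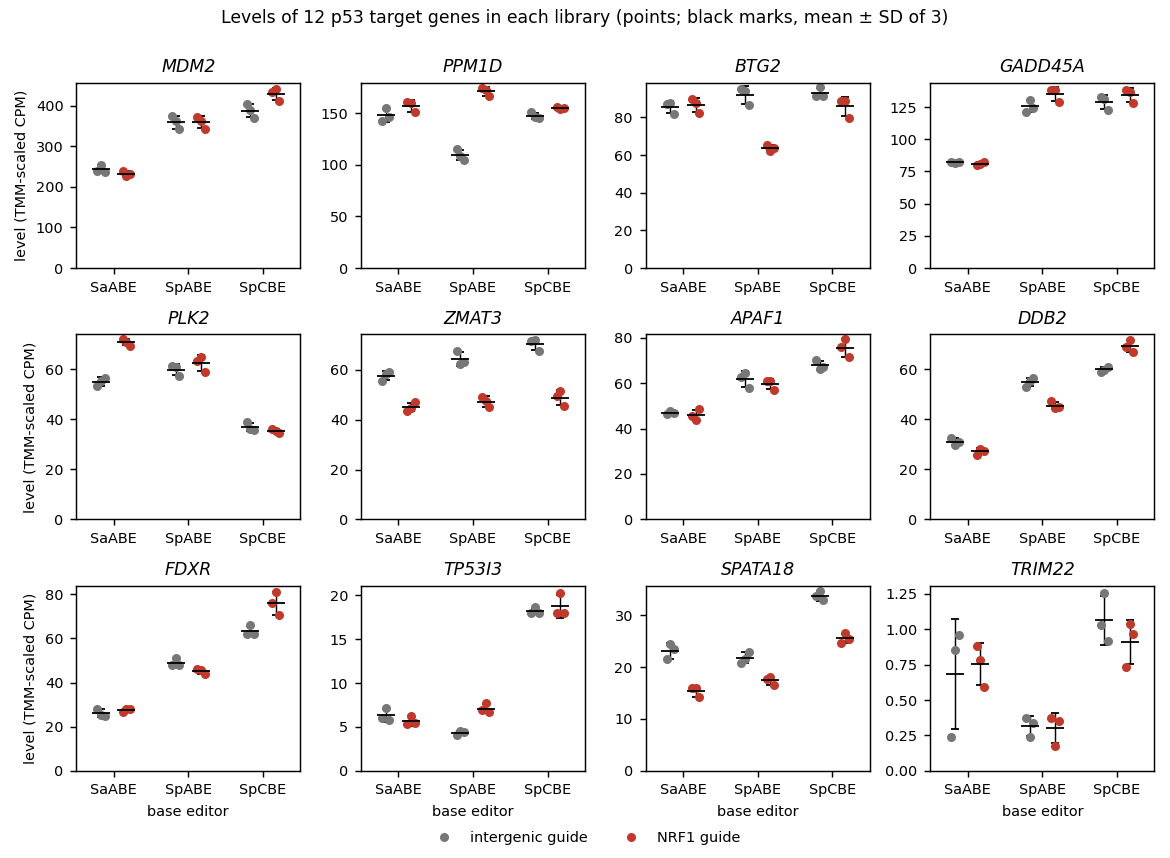
Level in TMM-scaled CPM (y axis, from 0) of the 12 members called in at least 1 comparison, in each of 18 libraries (points), by editor (x axis) and guide (grey for intergenic, red for NRF1), with black marks for the mean and SD of 3 libraries. TP53I3 and FDXR stand highest in SpCBE with either guide, ZMAT3 and SPATA18 are lower with the NRF1 guide in each editor, and PPM1D, BTG2 and TP53I3 separate the guides most in SpABE.

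**Figure D3:**
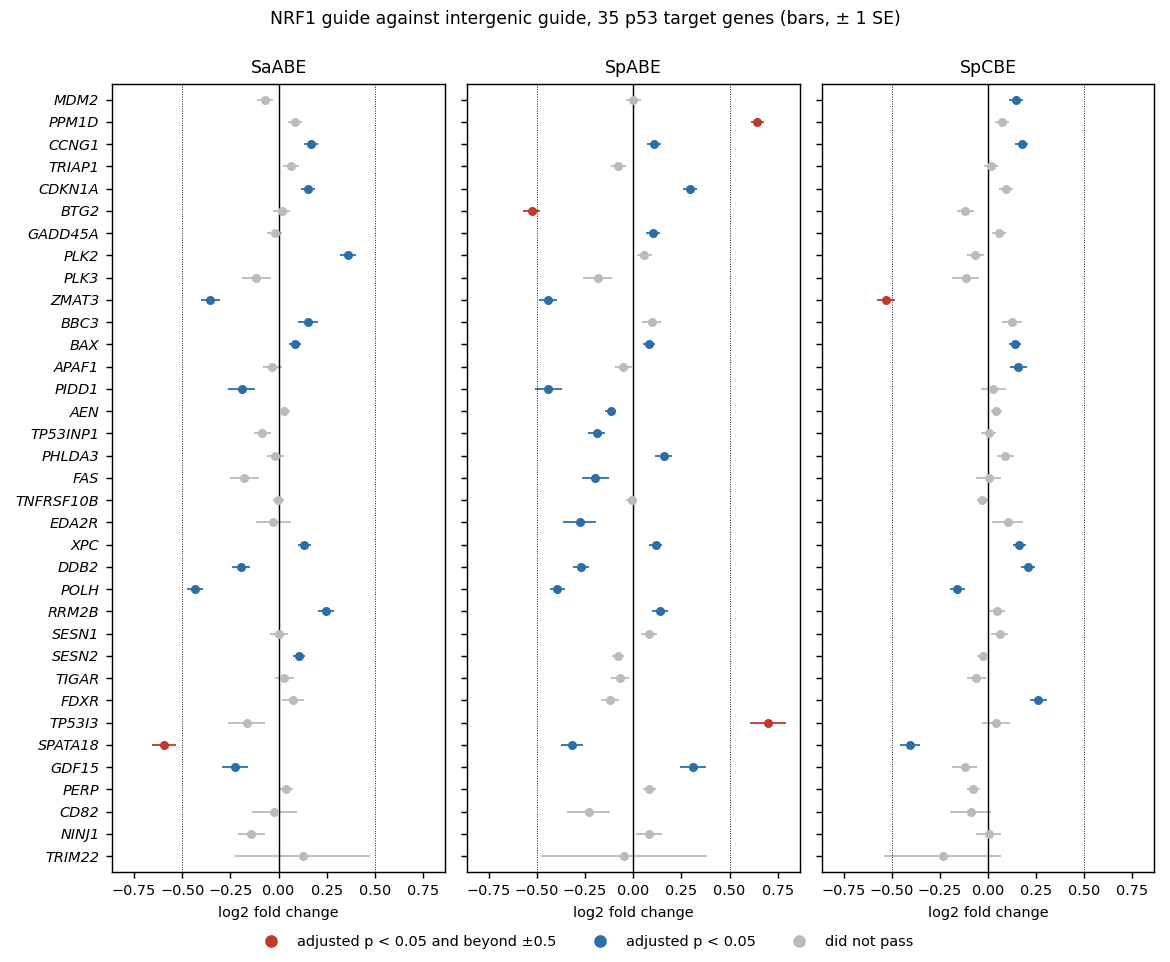
Log2 fold change (x axis) of the NRF1 guide against the intergenic guide for each of 35 p53 target genes (y axis, ordered by role) in each editor, from the fit over all 18 libraries, with bars of 1 SE and dotted lines at the fold threshold of 0.5. Points past the threshold are SPATA18 in SaABE, PPM1D, BTG2 and TP53I3 in SpABE and ZMAT3 in SpCBE.

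Whether the NRF1 guide acted differently between editors was tested as the difference of the log2 fold changes. Each editor carried a different NRF1 guide, so the editor and the guide cannot be told apart in these differences. Between SaABE and SpABE 8 members passed, beside 11.7% of all genes, and 4 were called beside 1.56%. Between SaABE and SpCBE 4 passed, beside 4.09% of genes, and by edgeR 0 were called beside 0.614%, where 13 had an unadjusted p under 0.05 and DESeq2 also called 0. Between SpABE and SpCBE 14 passed, beside 8.96% of genes, and 2 were called beside 1.43%. Without SpABE_NRF1 replicate 3 there were 9 that passed, and without SpABE_intergenic replicate 1 there were 4 called. PPM1D and TP53I3 were called in both comparisons that involve SpABE, and BTG2 and GDF15 in SaABE minus SpABE. The difference for PPM1D was -0.56 ± 0.05 in SaABE minus SpABE and 0.57 ± 0.05 in SpABE minus SpCBE, and both rest on the same SpABE libraries. DDB2 differed by -0.48 ± 0.054 in SpABE minus SpCBE (adjusted p = 2.68e-06) and by -0.40 ± 0.06 in SaABE minus SpCBE, so both differences from SpCBE passed. GDF15 held 29.5, 25.1 and 26.9 CPM under SaABE, 18.7, 21.8 and 20.2 under SpABE and 28.2, 29.8 and 26.6 under SpCBE with the intergenic guide. With the NRF1 guide it held 23.6, 24.96 and 21.5 CPM under SaABE, 25.9, 25.9 and 23.7 under SpABE and 26.7, 25.2 and 25.98 under SpCBE. It rose in SpABE, where the guides did not overlap, and fell in SaABE. With the replicate number as a block, the differences of SPATA18 in SaABE minus SpABE and of EDA2R and PERP in SpABE minus SpCBE did not pass (adjusted p = 0.065, 0.0527 and 0.0744).

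The members with a p53 decamer near the start did not all move in a single direction in any intergenic comparison. In SpCBE against SpABE, FDXR, FAS, AEN, SESN1 and DDB2 were higher (0.37, 0.30, 0.26, 0.23 and 0.13) and PLK2 lower (-0.69). In SaABE against SpABE, FDXR, DDB2, SESN1 and PLK2 were lower (-0.91, -0.82, -0.24 and -0.12), AEN was higher (0.26) and FAS did not pass. PLK2 did not pass there without SaABE_intergenic replicate 1 (adjusted p = 0.1). In SaABE against SpCBE with the intergenic guide, FDXR, DDB2, SESN1 and FAS were lower (-1.27, -0.95, -0.47 and -0.31), PLK2 was higher (0.57), and AEN did not pass (0.0011 ± 0.029). The share of all windows with the decamer is given above, and a match in these letters says nothing of binding.

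Other genes of the pathway were read in the same fit. Of 25 further p53 targets, all tested, 14 were higher and 2 lower in SpCBE against SpABE with the intergenic guide (median 0.20), beside 17.8% and 17.7% of all genes. In SaABE against SpABE 5 were higher and 7 lower (median -0.024), beside 19.3% and 19.1%, and in SaABE against SpCBE 4 were higher and 14 lower (median -0.23), beside 20.1% and 20.6%. Among them PMAIP1, which encodes the apoptosis activator NOXA, was lower in SaABE than in SpCBE (-0.68 ± 0.037, adjusted p = 6.4e-13), as was PRKAB1, a subunit of the energy sensor AMPK (-0.69 ± 0.038), whereas IER5, a cofactor of the heat-shock factor, was higher (1.07 ± 0.039). For the NRF1 guide over all 3 editors 8 of the 25 were higher and 5 lower (median -0.0011), beside 20.6% and 18.8% of all genes, with TP53I11 lower (-0.24 ± 0.031, adjusted p = 8.85e-07).

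Of 24 regulators of p53, 23 were tested, and 5 were higher and 6 lower in SpCBE against SpABE (median 0.014), 7 higher and 6 lower in SaABE against SpABE (0.058), and 9 higher and 6 lower in SaABE against SpCBE (0.030), beside the shares of all genes just given for these comparisons. ATM, the kinase that signals double-strand breaks, was lower in SaABE than in SpCBE (-0.56 ± 0.073, adjusted p = 1.44e-06), and the acetyltransferase CREBBP was higher in SaABE than in SpABE (0.42 ± 0.028). For the NRF1 guide over all 3 editors 4 were higher and 3 lower, beside 20.6% and 18.8% of all genes, and RPL5 and RPL11, ribosomal proteins that can bind MDM2, were higher by 0.22 ± 0.016 and 0.20 ± 0.022.

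Of 14 cell cycle genes that p21 and the DREAM repressor complex restrain, 5 were higher and 3 lower with the NRF1 guide over all 3 editors (median 0.037), beside 20.6% and 18.8% of all genes. In the intergenic libraries 12 were lower in SaABE against SpABE and the other 2 did not pass (median -0.13), beside 19.1% of all genes lower and 19.3% higher. The largest difference there was that of MCM5, a helicase subunit (-0.72 ± 0.029, adjusted p = 3.51e-15). In SpCBE against SpABE 3 of the 14 were higher and 5 lower (median -0.028), beside 17.8% and 17.7% of all genes. In SaABE against SpCBE 0 of the 14 were higher and 10 lower (median -0.18), beside 20.1% and 20.6% of all genes. Stress genes outside the p53 pathway also differed between editors. Of 10 genes of the integrated stress response, whose factor ATF4 is also known to act on GDF15 and SESN2, 8 were higher and 1 lower in SaABE against SpCBE (median 0.30), with CHAC1 at 1.87 ± 0.063 and DDIT3 at 1.23 ± 0.045. Of 10 immediate-early genes, 8 were higher and 1 lower in the same comparison (median 0.77), with EGR1 at 1.99 ± 0.056. The shares of all genes in that comparison were 20.1% higher and 20.6% lower. In SpCBE against SpABE 2 stress response genes were higher and 7 lower (median -0.19), beside 17.8% and 17.7% of all genes. Of the immediate-early genes 1 was higher and 6 lower there (median -0.35). In SaABE against SpABE 7 stress response genes were higher and 2 lower (median 0.19), beside 19.3% and 19.1% of all genes. Of the immediate-early genes 7 were higher and 1 lower there (median 0.13). With the NRF1 guide over all 3 editors 6 of the 10 stress response genes and 8 of the 10 immediate-early genes were higher, beside 20.6% of all genes. The rest did not pass, and ATF5 was at 1.04 ± 0.048. These counts differed by editor, and so did the shares of all genes. Higher were 16.9% of all genes in SaABE, 15.4% in SpABE and 11.0% in SpCBE, and 12.0% were lower in SpCBE. In SaABE 8, in SpABE 10 and in SpCBE 1 of the immediate-early genes were higher (medians 0.31, 0.49 and -0.092), and 3 were lower in SpCBE. The difference of the guide effects passed for 8 of the 10, all higher, in SpABE minus SpCBE, beside 8.96% of all genes in either direction. Of the stress response genes 6, 8 and 4 were higher in SaABE, SpABE and SpCBE, and 3 were lower in SpCBE. The part of these genes in the differences between p53 targets was not tested.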

How the data were processed

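The data are 18 RNA-seq libraries from HEK293T cells, in 6 groups of 3 set by the labels. The kit was the Illumina Stranded mRNA Prep. Reads had been trimmed (cutadapt 1.18) and aligned (STAR 2.7.0f) by the authors on hg38 with GENCODE 30, and the submitters' notes name DESeq2 1.46.0. How reads were counted per gene, with which strand setting and what was done with reads of several matches, is not given in the sources. The deposited values are estimated counts per gene, not normalized. Of the nonzero values 19.63% were not whole. They were rounded before testing, which was a change from the planned use of whole counts. Of 36 sample columns, 18 belong to other samples and were not used.

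Genes were kept with filterByExpr by group (a level of 0.292 CPM) and scaled by TMM. The quasi-likelihood test of edgeR 4.0.16 with Benjamini-Hochberg adjustment was run over 17743 genes under R 4.3.3. The comparison over all editors (9 against 9 libraries) held the editor as an additive term, and all others came from 6 group means with a biological coefficient of variation of 3.1%. A gene passed at an adjusted p under 0.05 and was called when its absolute log2 fold change was also over 0.5. Errors are SE, and levels are given per library or as ranges. Alternatives were RLE scaling, DESeq2 1.42.0, other filters, the replicate number as a block, no editor term, only the groups compared, and leaving out each library.

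In SpABE, deviations of same-numbered libraries from the group means correlated at 0.158, 0.113 and 0.126 over 8871 genes, so the numbers were taken to pair the libraries there. The main fits held no term for this pairing. It entered only in the alternative with the replicate number as a block, which was fitted for all editors. The pairing rests on the data alone, since the meaning of the number is not in the labels. Any 2 libraries of a group differed by more than sampling noise. Values per library were printed for the 12 members called in the effects of the NRF1 guide or the intergenic comparisons. The members, lists and rule were chosen with earlier results of these data known. One gene each of the lists of p53 regulators and of cell cycle genes is not reported here and is not in their counts. The steps were tested on simulated data. Loci came from GENCODE 44 on hg38 and promoters from RefSeq GRCh38.p14, where 7 members had no entry.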

Additional observations from a re-analysis of the deposited data

Results flagged for a closer look

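The effect of the NRF1 guide differed between editors, by the test of the difference itself, for 4 p53 targets. For PPM1D the difference in log2 fold change was -0.56 ± 0.050 (SE) in SaABE minus SpABE and 0.57 ± 0.050 in SpABE minus SpCBE, with adjusted p of 7.09e-08 and 5.2e-08. The intergenic SpABE libraries, which enter both, were the lowest of the 18. For TP53I3 the differences were -0.87 ± 0.13 (adjusted p = 0.000135) and 0.66 ± 0.12 (adjusted p = 0.000666). Its intergenic SpABE libraries, which enter both, were also the lowest of the 18. For BTG2 the difference in SaABE minus SpABE was 0.54 ± 0.064 (adjusted p = 4.17e-06), and all 3 SpABE libraries with the NRF1 guide lay below the other 15. For GDF15 it was -0.53 ± 0.094 (adjusted p = 0.000564), with a rise in SpABE and a fall in SaABE. No explanation was tested. Groups of 3 libraries are too small for the test of single outlying libraries.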

How the results depend on the processing

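Of 3934 values, under alternatives, of members that passed, 3669 kept their direction and side of the threshold, 256 lost the call or the pass, 9 gained a call and 0 changed sign. Without the editor term 6 members passed for the NRF1 guide over all 3 editors, instead of 17, and without a filter on low counts 7 instead of 4 passed in SaABE minus SpCBE. Leaving out each library in turn gave 0 to 1 called members for the NRF1 guide in SpCBE (0 without SpCBE_NRF1 replicate 3). In SpABE minus SpCBE it gave 2 to 4 called (4 without SpABE_intergenic replicate 1) and 9 to 14 passed (9 without SpABE_NRF1 replicate 3). The replicate block left every count of called members as it was. It gave 19 instead of 20 passed members in SpABE, where CCNG1 and BAX lost the pass and FDXR gained it, and 14 instead of 17 over all 3 editors. In SpCBE CDKN1A and BTG2 gained the pass (adjusted p = 0.0289 and 0.0292). In SaABE and SpCBE same-numbered libraries correlated from -0.388 to 0.102, so the libraries share only a number there. RLE scaling moved the median of all genes by at most 0.02.

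Over all genes, the called count for the differences between guide effects depended on the filter and tool. In SaABE minus SpABE it was 277, 420 without the filter and 179 with DESeq2, and in SaABE minus SpCBE it was 109, 219 and 50. In SpCBE against SpABE it was 1098, and 715 with at least 1 CPM in at least 9 libraries, a filter that also removes TRIM22. The causes were not tested beyond the number of genes each filter leaves.

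With 3 libraries a group, some differences near the threshold were lost without particular libraries. Some are given beside ZMAT3, APAF1, GADD45A, DDB2, PLK2, SPATA18, TP53I3 and TRIM22, and others include the following. MDM2 did not pass in SpCBE against SpABE without SpABE_intergenic replicate 3 (adjusted p = 0.209), or in SaABE minus SpCBE without SpCBE_intergenic replicate 3 (0.065). BTG2 in SaABE against SpCBE did not pass without SaABE_intergenic replicate 3 (0.146). PLK2 over all 3 editors did not pass without SaABE_intergenic replicate 1 (0.0707) or with the replicate block (0.0726). TRIM22 and TNFRSF10A are limited by depth. MDM2 and TIGAR had counts that were not whole in every library, and reads shared with overlapping genes cannot be separated.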
